A study of Mus musculus with 15 samples.

Results

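The metabotropic glutamate receptors described here are 7 genes, Grm2, Grm3, Grm4, Grm5, Grm6, Grm7 and Grm8, chosen by name from the 26628 genes measured. Transcript levels were measured by RNA-seq in whole dissected cerebella (Ce) and striata (St). The mice were males of strain Hsd:ICR and belonged either to a line bred for high running on wheels (Hi) or to a control line without that selection (Co). The labels give an age of 6 weeks, whereas the methods give 7 weeks. There were 4 samples each of CeCo, CeHi and StCo and 3 of StHi, where the authors had left out 1 sample, and all mice of both lines had running wheels before dissection. The labels give 7 days of wheel access, and the methods give 6 days. Each line is a single breeding line, so that selection and chance divergence of these lines cannot be told apart. The Hi mice also ran more before dissection. Per the paper, wheel access makes it hard to part a genetic basis of motivation from effects of running itself. Replicates are separate mouse samples that carry the label numbers 0 to 3. It is not stated whether Ce and St samples came from the same mice. Comparisons are written as in CeCo-CeHi, in which a positive log2 difference is higher in the first group.

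Metabotropic glutamate receptors are membrane receptors that pass the glutamate signal to G proteins. Group I receptors, of which Grm5 encodes mGluR5, act through Gq and phospholipase C and sit mainly on the postsynaptic side. Group II (Grm2 and Grm3) and group III receptors (Grm4, Grm6, Grm7 and Grm8) act through Gi/o, lower cyclic AMP and mostly restrain transmitter release. In the cerebellum mGluR4 is known from the parallel fibre terminals of granule cells and mGluR2 from Golgi and unipolar brush cells, whereas in the striatum mGluR5 is known from medium spiny neurons. Grm6 is best known from the ON bipolar cells of the retina.

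The values are normalized counts, in which the number of fragments of a gene was divided by a factor for the depth of the sample and not by gene length. One fragment was worth 0.841 to 1.30 normalized counts, and totals were 38499264 to 43669012 per sample. Transcripts of 6 members passed the filter on low values (1 CPM, or count per 1000000, in at least 3 samples, met by 15213 genes), and Grm6 did not. The members lie on 6 chromosomes of GRCm38. Grm2 is at chr9:106643095-106656082 and Grm4 at chr17:27422387-27521403, both on the minus strand, and Grm3 is on the minus strand at chr5:9485541-9725170. On the plus strand are Grm5 at chr7:87584168-88134907, Grm6 at chr11:50850685-50866208 and Grm7 at chr6:110645581-111567230, and Grm8 is on the minus strand of the same chromosome at chr6:27275119-28135178. Exons of Grm2, Grm6 and Grm7 are crossed by antisense genes, and the miRNA gene Mir592 lies within Grm8. Because it is not stated whether the libraries kept the strand, reads of the antisense pairs cannot be told apart. Mir592 is on the same strand as Grm8, so that the strand would not part their reads. No 50-base window of one member occurred in another member.

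Grm2 and Grm3 belong to the same group and differed in the direction of their region difference, and Grm6 had almost no fragments. The RefSeq promoters of these 3 genes (GRCm38.p6, 250 bases before the annotated start, on the strand of the gene) are shown with GGGCGG, the GC box, in capitals. The windows are chr9:106656110-106656359 for Grm2, chr5:9725353-9725602 for Grm3 and chr11:50850435-50850684 for Grm6.
Grm2: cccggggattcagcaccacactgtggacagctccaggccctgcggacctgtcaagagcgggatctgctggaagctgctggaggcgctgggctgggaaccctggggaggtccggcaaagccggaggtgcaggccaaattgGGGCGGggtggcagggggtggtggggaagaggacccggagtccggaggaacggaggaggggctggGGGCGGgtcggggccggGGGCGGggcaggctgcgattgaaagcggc
Grm3: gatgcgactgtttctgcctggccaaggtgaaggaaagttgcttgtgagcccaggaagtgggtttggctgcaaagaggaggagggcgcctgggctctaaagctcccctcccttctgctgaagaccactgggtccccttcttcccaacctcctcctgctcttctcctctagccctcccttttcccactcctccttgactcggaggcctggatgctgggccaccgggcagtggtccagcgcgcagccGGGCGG
Grm6: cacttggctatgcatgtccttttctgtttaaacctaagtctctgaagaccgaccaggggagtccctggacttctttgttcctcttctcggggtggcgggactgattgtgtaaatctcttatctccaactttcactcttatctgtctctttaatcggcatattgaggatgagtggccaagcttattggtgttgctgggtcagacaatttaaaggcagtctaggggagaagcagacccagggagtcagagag
The letters GGGCGG, searched on both strands, occurred 3 times in the Grm2 window, once in that of Grm3 and 0 times in that of Grm6, and 32.7% of 32851 such windows of all genes held them. The Grm2 window had 16 CpG dinucleotides, the Grm3 window 8 and the Grm6 window 4, beside a median of 6 over all windows. The cyclic AMP response element TGACGTCA (held by 1.55% of all windows), the TATA box TATAAA (12.4%), the AP-1 site TGACTCA (4.46%) and the E-box CACGTG (6.02%), searched on both strands, had 0 matches in the 3 windows. A match of letters is a description and does not show binding.

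The receptor makeup of the regions differed. Scaled to the summed length of all annotated exons, Grm4 was the highest of the 7 genes in the Ce, at 2492 ± 396 normalized counts per kilobase in CeCo (SD, n = 4) and 2000 ± 194 in CeHi (n = 4). Grm5 was the highest in the St, at 1699 ± 160 in StCo (n = 4) and 1703 ± 228 in StHi (n = 3). Grm4 thus made up 79.6% of the summed length-scaled level of the 7 genes in CeCo and 74.4% in CeHi, and Grm5 47.6% in StCo and 48.1% in StHi. Among the 15213 genes tested, the unscaled mean count of Grm4 stood at percentile 97.6 in CeCo and 96.5 in CeHi, and that of Grm5 at 97.7 in StCo and 97.8 in StHi. Grm5 in CeCo (percentile 32.2) and Grm4 in StCo (percentile 60.1) were far lower in the rank.

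The other receptors were at lower levels per kilobase. In CeCo the order after Grm4 was Grm3 with 293 ± 20.8, Grm2 with 131 ± 12.3, Grm7 with 121 ± 10.5, Grm8 with 42.9 ± 4.13 and Grm5 with 38.7 ± 4.0 (SD, n = 4 each). The ranges of Grm2 and Grm7 overlapped, as did those of Grm8 and Grm5. In StCo Grm5 was followed by Grm3 with 912 ± 105, Grm7 with 530.4 ± 50.6, Grm4 with 251 ± 29.6, Grm2 with 102 ± 23.3 and Grm8 with 73.9 ± 5.39 (SD, n = 4 each), and only the ranges of Grm2 and Grm8 overlapped between neighbours. The order depends on the length used, since the isoforms in these samples are unknown. With the length of 1 transcript per gene, Grm4 still led in the Ce (78.0% in CeCo and 72.3% in CeHi) and Grm5 in the St (59.8% in StCo and 60.3% in StHi), but Grm7 stood before Grm3 in the St and before Grm2 in the Ce.

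**Figure D1:**
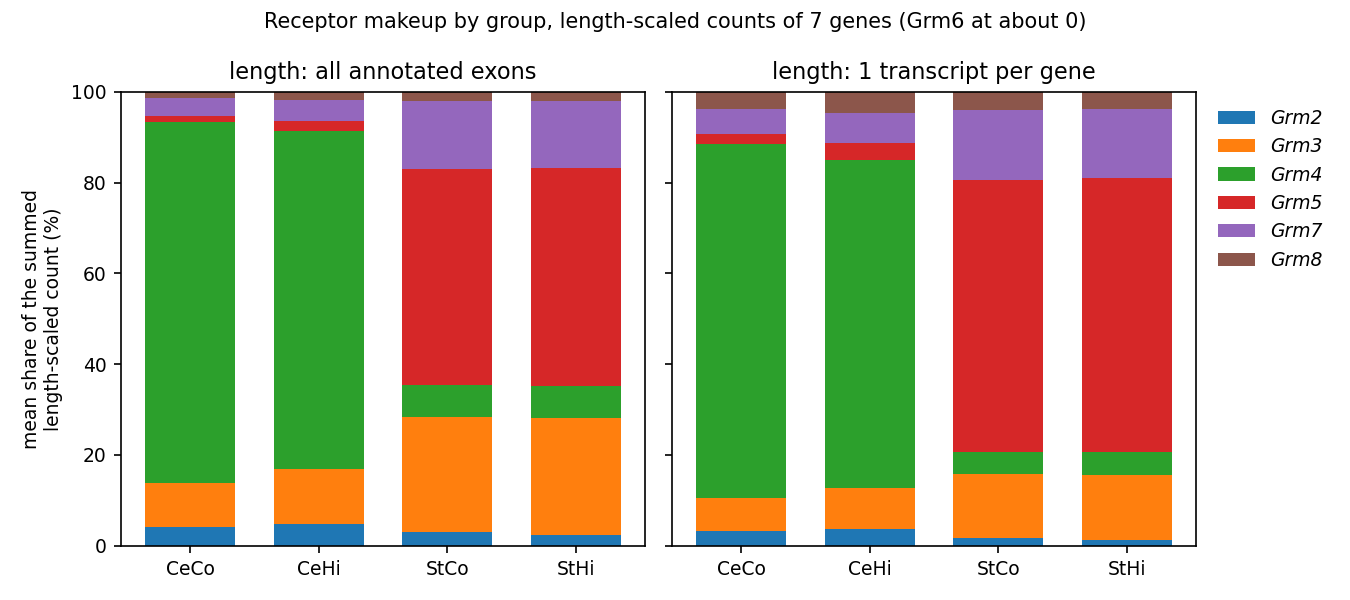
Stacked bars give the mean share (%, vertical axis from 0 to 100) of each receptor gene in the summed length-scaled count of the 7 genes, for the groups CeCo, CeHi, StCo and StHi, with 2 definitions of gene length. Grm4 fills between 72.3% and 79.6% of the Ce bars and Grm5 between 47.6% and 60.3% of the St bars, while the share of Grm6 is too small to see.

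The region comparisons ask which receptors differ between Ce and St within a line. In the control line 5 of the 6 members tested passed an FDR-adjusted P-value of 0.05, 1 higher in the Ce (Grm4) and 4 higher in the St (Grm3, Grm5, Grm7 and Grm8). In the Hi line all 6 members tested passed, with Grm2 as the second gene higher in the Ce. Of all genes tested 74.7% passed in CeCo-StCo (higher in the Ce for 37.8% and lower for 36.9%) and 70.5% in CeHi-StHi (higher for 35.4% and lower for 35.1%), so that these counts are near the background and the size of the differences is of more use. The median log2 difference of the 6 members was -1.21 in CeCo-StCo and -0.97 in CeHi-StHi, beside 0.01 in both over all genes tested. In bulk tissue, fewer cells of a type and less RNA per cell cannot be told apart.

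Grm5 had the largest region difference of the members. Its normalized counts in CeCo were 413, 379, 445 and 351, and those in StCo were 16882, 17101, 15918 and 19752. In CeHi they were 478, 454, 415 and 1067, and in StHi 14759.8, 18665 and 18936. Every St sample was far above every Ce sample in both lines, and 1 CeHi sample, replicate 3, stood above the other Ce samples. The log2 difference was -5.46 ± 0.24 (SE) in CeCo-StCo, a 43.9-fold higher level in the St (limma, FDR-adjusted P-value = 1.4e-10). In CeHi-StHi it was -4.96 ± 0.26 (limma, FDR-adjusted P-value = 1.1e-09), and without CeHi replicate 3 it was -5.28. Of the sizes of region difference of all genes tested, that of Grm5 was at percentile 98.4 in the control line and 98.1 in the Hi line.

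Grm4 was the receptor with the opposite pattern. Its normalized counts were 16566, 14272, 11821 and 16931 in CeCo and 1473, 1327, 1446 and 1746 in StCo. In the Hi line they were 11618, 13487, 10702 and 12004 in CeHi and 1250.4, 1741 and 1619.6 in StHi. All 8 Ce samples were above all 7 St samples. The log2 difference was 3.30 ± 0.12 (SE) in CeCo-StCo, or 9.86-fold higher in the Ce (limma, FDR-adjusted P-value = 1.4e-12), and 2.96 ± 0.13 in CeHi-StHi (limma, FDR-adjusted P-value = 1.9e-11). Markers of granule cells (Gabra6, Cbln3 and Fat2) summed to 130396 to 168365 normalized counts in the Ce samples and to 42.0 to 81.5 in the St samples. Their part in the Grm4 difference was not tested.

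Grm7, which encodes a receptor of presynaptic active zones, was higher in the St. It had 788, 733, 684 and 644 normalized counts in CeCo and 3449.9, 2942, 2809 and 3288 in StCo. In CeHi the values were 737, 770.1, 748 and 682, and in StHi 3095, 3097 and 2978. The regions did not overlap in either line, and the 7 St samples lay within a narrow range. Grm7 had a log2 difference of -2.14 ± 0.07 (SE) in CeCo-StCo (limma, FDR-adjusted P-value = 5.3e-14) and -2.06 ± 0.08 in CeHi-StHi (limma, FDR-adjusted P-value = 3.6e-13). The level in the St was 4.39-fold higher in the control line and 4.18-fold higher in the Hi line.

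The group II receptors parted. Grm3, which is expressed by astrocytes as well as neurons, had normalized counts of 922, 853, 968 and 829.1 in CeCo and 2738, 2790.2, 2406 and 3184 in StCo. In the Hi line it had 1018, 1088, 965 and 900.4 in CeHi and 2494, 3169.8 and 2659 in StHi. All St samples were above all Ce samples. This gave a log2 difference of -1.64 ± 0.09 (SE) in CeCo-StCo (limma, FDR-adjusted P-value = 3.4e-11) and -1.48 ± 0.10 in CeHi-StHi (limma, FDR-adjusted P-value = 4.9e-10). Of 4 astrocyte markers, Aqp4 and Aldh1l1 were higher in the Ce of the control line, with log2 differences of 1.71 and 0.32 in CeCo-StCo (limma, FDR-adjusted P-values of 9.0e-12 and 0.016). Gfap and Gja1 had 0.04 and 0.13 there and did not pass (0.73 and 0.088). The sum of the 4 was 28053 to 35579 in the Ce and 16257 to 20639 in the St. This gap was owed mostly to Aqp4 (15028 ± 710 in CeCo and 4614 ± 558 in StCo). The astrocyte transporter genes Slc1a2 and Slc1a3 went in opposite directions. Slc1a2 was higher in the St, as Grm3 was, and Slc1a3 was higher in the Ce. In CeCo-StCo their log2 differences were -1.82 and 1.15. The part of astrocytes in the Grm3 difference was not tested.

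Grm2 was the receptor with the smallest region difference in the control line. Its normalized counts were 683, 651, 555 and 680.4 in CeCo and 489, 618, 545 and 348 in StCo, and these groups overlapped. In CeHi they were 618, 621, 666 and 589.7 and in StHi 534, 346 and 304, and these groups did not overlap. The log2 difference was 0.38 ± 0.17 (SE) in CeCo-StCo, which missed the threshold (limma, FDR-adjusted P-value = 0.053, 95% interval 0.02 to 0.74), and 0.70 ± 0.18 in CeHi-StHi (limma, FDR-adjusted P-value = 0.0030). The difference between these values is the interaction, -0.31 ± 0.25, and it did not pass (limma, FDR-adjusted P-value = 0.79). The control line value passed when CeCo replicate 2 (limma, FDR-adjusted P-value = 0.038), StCo replicate 1 (0.018), StCo replicate 2 (0.049), StHi replicate 0 (0.017) or StHi replicate 2 (0.039) was left out.

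Markers of cells in which mGluR2 is known differed between samples. The cortical neuron markers Tbr1, Neurod6 and Emx1 summed to 4691 to 7318 normalized counts in StCo and to 5696, 2545 and 4485 in StHi replicates 0, 1 and 2, against 160.5 to 222 in the Ce, where Emx1 was at the detection floor of 3 fragments in CeCo. Eomes, a marker of unipolar brush cells, was at 1521 to 2005 in CeCo and 2602 to 2912 in CeHi, and at 8.64 to 152 in the St. Its Ce values did not overlap between lines, as was so for 13.3% of all genes tested. The line difference of Eomes in the Ce did not pass (limma, FDR-adjusted P-value = 0.58). Of the Golgi cell markers, Slc6a5 was at 349 to 437.1 in CeCo and 364 to 555 in CeHi, and at the detection floor in the St. Lgi2 was at 970 to 1145 in CeCo and 1155 to 1642.5 in CeHi, but also at 959 to 1049 in StCo. It did not pass in CeCo-StCo (limma, FDR-adjusted P-value = 0.68) and passed in CeHi-StHi (0.0032). The part of these cells in the Grm2 values was not tested.

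Grm8, another presynaptic group III receptor, differed less between regions than Grm4 and Grm7. Its normalized counts were 423, 410.1, 481 and 385 in CeCo and 746, 786, 658 and 734 in StCo, without overlap. In CeHi they were 494, 476, 495 and 401 and in StHi 754, 483 and 717, and StHi replicate 1 lay among the CeHi samples. Grm8 had a log2 difference of -0.79 ± 0.12 (SE) in CeCo-StCo (limma, FDR-adjusted P-value = 1.7e-05) and -0.46 ± 0.13 in CeHi-StHi (limma, FDR-adjusted P-value = 0.0048). The interaction was -0.33 ± 0.18 and did not pass (limma, FDR-adjusted P-value = 0.63).

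Grm6 was at the detection floor. It had 0 fragments in 11 of 15 samples, 1 fragment in 3 samples and 2 fragments in the remaining sample, which was StCo replicate 1 at 1.98 normalized counts. The floor of 3 fragments, which covers counting error only, corresponds to 2.52 to 3.89 normalized counts. No fold is given because all 4 groups were at the floor. Trpm1, the channel that mGluR6 controls in bipolar cells, was at 0 to 2.11 normalized counts in the Ce and 2.37 to 9.45 in the St and did not pass the filter.

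The normalized counts of 5 members did not overlap between the regions in the control line (all but Grm2 and Grm6), beside 69.9% of all genes tested. In the Hi line 5 members did not overlap (all but Grm6 and Grm8), beside 68.3% of all genes tested.

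**Figure D2:**
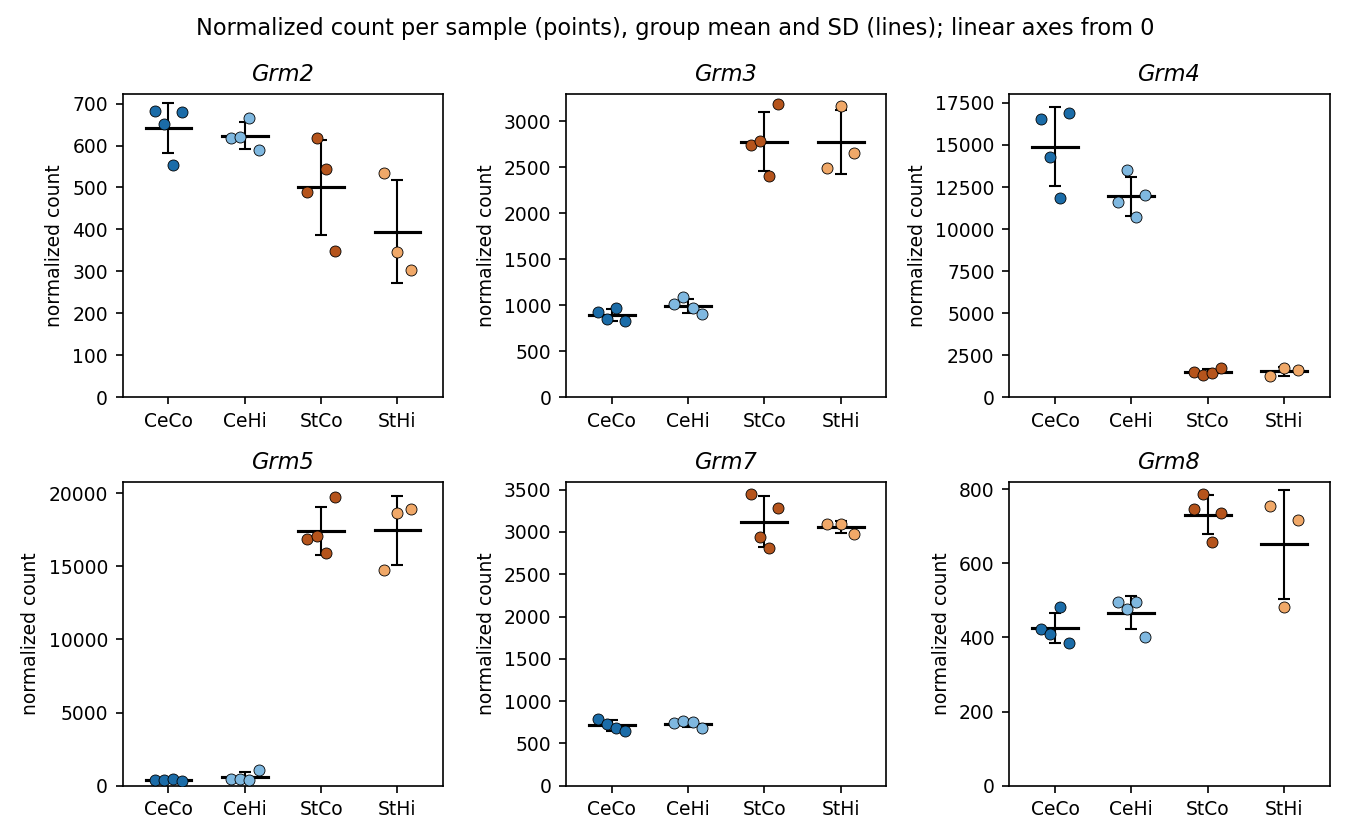
Each panel shows 1 gene, with the normalized count of each sample as a point (linear vertical axis from 0), grouped as CeCo, CeHi, StCo and StHi, the group mean as a horizontal line and the SD as a bar. Grm4 is high in the Ce (11953 ± 1159 to 14897 ± 2365), Grm5 in the St (17413 ± 1642 and 17453 ± 2337), and the groups of Grm2 are the closest.

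**Figure D3:**
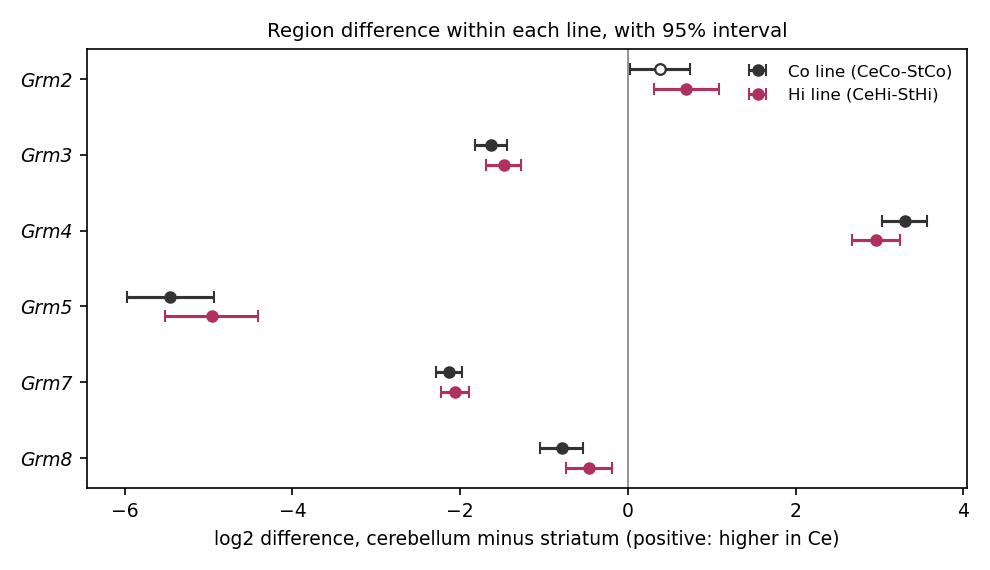
Points give the log2 difference Ce minus St (horizontal axis) of each receptor in the Co line (grey) and the Hi line (red), with 95% intervals of the model, and an open point marks an FDR-adjusted P-value of 0.05 or more. Grm4 lies at 3.30 and 2.96, Grm5 at -5.46 and -4.96, and only Grm2 in the Co line is open.

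The line comparisons ask whether the receptors differ between Co and Hi mice within a region. None of the 6 members tested passed in CeCo-CeHi, in StCo-StHi, in the mean of both (the line effect) or in their difference (the interaction) by limma, edgeR or DESeq2. Of all genes tested 5.94% passed in CeCo-CeHi, 2.66% in StCo-StHi, 8.48% in the line effect and 0.532% in the interaction. At an unadjusted P-value under 0.05 the count of members by limma was 1 (Grm4) in CeCo-CeHi and 0 in the other 3 tests, and by edgeR and by DESeq2 it was 2 in CeCo-CeHi and 0 in the other 3. The normalized counts of 0 members were without overlap between lines in either region, beside 13.3% of all genes in the Ce and 13.1% in the St. A P-value that misses the threshold does not show equal levels, and the 95% intervals are therefore given.

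Grm4 in the Ce was 14897 ± 2365 normalized counts in CeCo (SD, n = 4) and 11953 ± 1159 in CeHi (n = 4). The log2 difference was 0.31, with a 95% interval of 0.05 to 0.58 (limma, unadjusted P-value = 0.024, FDR-adjusted P-value = 0.17). The ranges overlapped, because CeCo replicate 2, at 11821, was lower than 2 of the CeHi samples. In the St the difference was -0.02 (95% interval -0.31 to 0.26), and the interaction of 0.34 did not pass (limma, FDR-adjusted P-value = 0.62).

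Grm5 in the Ce was 397 ± 41.0 normalized counts in CeCo (SD, n = 4) and 604 ± 310.3 in CeHi (n = 4), and the log2 difference of -0.49 (95% interval -1.0 to 0.03) did not pass (limma, FDR-adjusted P-value = 0.28). The CeHi mean rests on replicate 3, and without it the mean was 449 ± 32.0 (n = 3) and the log2 difference -0.18. In that sample the medium spiny neuron marker Drd2, a dopamine receptor, was at 109 normalized counts, against 18.7 to 33.6 in the other Ce samples. Of the 4 other medium spiny markers, Adora2a (91.9 against 61.4 to 74.9), Rgs9 (361 against 124 to 318) and Drd1a (34.9 against 16.2 to 34.5) were also highest there, by smaller margins, and Ppp1r1b, at 5868, was not. The sum of the 5 markers was 6465, within the 5109 to 6796 of the other Ce samples, but most of it was Ppp1r1b. As a share of the St mean, the median of the 5 markers was 0.512% to 0.745% in the other Ce samples and 1.76% in replicate 3. Grm5 was at 6.12% of its St mean there and at 2.01% to 2.75% in the others. Elfn1, which encodes a synaptic partner of group III receptors, was at 117 normalized counts there and at 32.1 to 72.5 in the other Ce samples. Whether other tissue contributed to that sample was not tested. In the St, Grm5 was at 17413 ± 1642 in StCo and 17453 ± 2337 in StHi, a log2 difference of 0.01 (95% interval -0.55 to 0.56).

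Grm2 in the St was 500.1 ± 114 normalized counts in StCo (SD, n = 4) and 395 ± 123 in StHi (n = 3). The log2 difference was 0.36 (95% interval -0.03 to 0.75), within the spread of the samples (limma, FDR-adjusted P-value = 0.41). Grm2 differed by 0.04 in the Ce (95% interval -0.32 to 0.40). Grm8 in the St had a log2 difference of 0.20 (95% interval -0.08 to 0.48), which was -0.0050 without StHi replicate 1.

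Grm3 and Grm7 had the narrowest intervals. The log2 difference of Grm3 was -0.15 (95% interval -0.34 to 0.05) in the Ce and 0.01 (-0.20 to 0.22) in the St. That of Grm7 was -0.04 (95% interval -0.19 to 0.11) in the Ce and 0.03 (-0.13 to 0.20) in the St. Line differences of Grm7 over 0.20 in size on the log2 scale thus lay outside the interval in both regions.

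**Figure D4:**
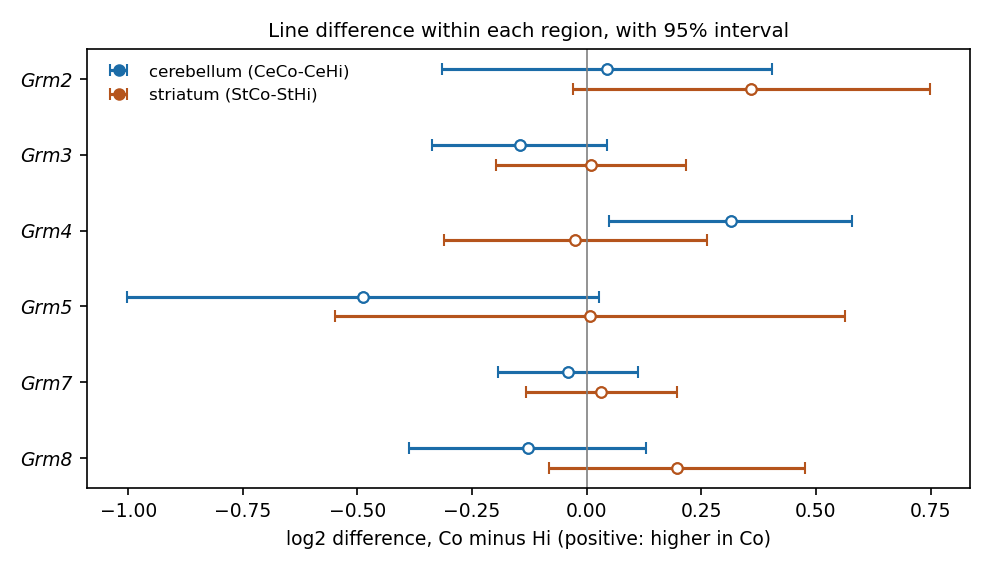
Points give the log2 difference Co minus Hi (horizontal axis) of each receptor in the Ce (blue) and the St (brown), with 95% intervals of the model, and all points are open because no FDR-adjusted P-value was under 0.05. The interval of Grm4 in the Ce, 0.05 to 0.58, is the only one that does not reach 0.

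Across the 15 samples, Grm3, Grm5 and Grm7 followed each other closely (Pearson r of log2 values 0.981 to 0.990), and Grm4 went against them (r between -0.987 and -0.976). These values describe samples of 2 regions and reflect mainly the region difference that they share. The genes with the highest r with each member were Camkv and D430019H16Rik for Grm5 (0.999 each), Afap1l2 and Wnt7a for Grm4 (0.997 each) and Rasgrp1 and Tiam2 for Grm7 (0.998 each). For Grm3 they were Scn4b (0.995) and Tacc1 (0.994), and for Grm8 Rai14 (0.966) and Prss23 (0.958). Grm2 had lower values, with Mmp9 at 0.887 and Sncb at 0.884.

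The receptors work with scaffolds, G proteins, effectors and transporters, and 37 such genes were analysed and 36 tested. Of these, 15 were higher and 15 lower in the Ce than in the St of the control line, and 16 and 14 in the Hi line. Their shares are 83.3% in both lines, beside 74.7% and 70.5% of all genes tested. The median log2 difference of the list was -0.14 in CeCo-StCo and 0.05 in CeHi-StHi.

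Of 11 scaffolds and binding partners, 8 were higher in the St in the control line and 2 in the Ce, beside 36.9% and 37.8% of all genes tested. Homer proteins link group I receptors to calcium stores, and their genes parted by region. Homer1 had 2373 ± 148 normalized counts in CeCo and 11784 ± 2422 in StCo (SD, n = 4 each), whereas Homer3 had 10330 ± 364 and 251 ± 11.4. The log2 differences were -2.29 and 5.35. Higher in the St were also Grasp (Tamalin, a scaffold that binds group I receptors), with a log2 difference of -4.17, Ncdn (neurochondrin, which binds mGluR5) with -2.27, and Elfn1 and Elfn2, adhesion proteins that bind group III receptors, with -4.97 and -3.33. All of these passed in the Hi line in the same direction.

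Of 6 genes of the Gq arm tested, 3 were higher in the Ce and 2 in the St, in both lines. Of all genes tested, 37.8% were higher in the Ce and 36.9% in the St in the control line (35.4% and 35.1% in the Hi line). Phospholipase C genes parted like the Homer genes, with Plcb4 at 10772 ± 835 normalized counts in CeCo and 1669 ± 81.1 in StCo, and Plcb1 at 3879 ± 484 and 15269 ± 1677 (SD, n = 4 each). Itpr1, the calcium release channel of Purkinje cells, was higher in the Ce by 1.65 on the log2 scale in CeCo-StCo. Of 10 genes of the Gi/o arm, 6 were higher in the Ce and 2 in the St in the control line, beside the same 37.8% and 36.9%. The adenylyl cyclase genes Adcy1 and Adcy5 differed by 2.21 and -4.30 on the log2 scale, and Adcy5 is the main striatal cyclase. Among the transporters Slc1a6, the Purkinje cell glutamate transporter, was higher in the Ce by 4.45 and Slc1a3 by 1.15. Slc1a2 was higher in the St, with a log2 difference of -1.82.

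**Figure D5:**
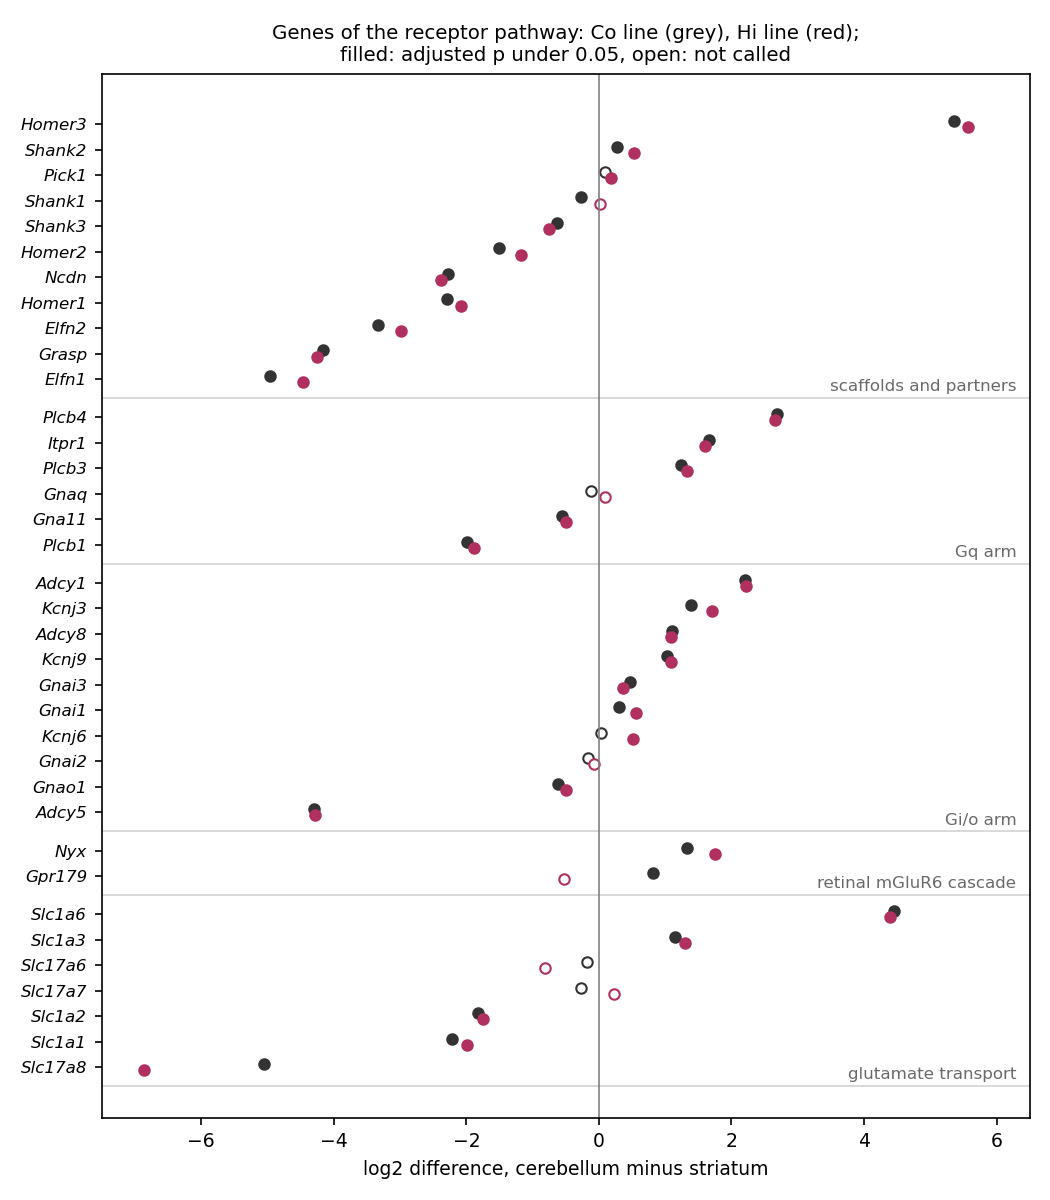
Points give the log2 difference Ce minus St (horizontal axis) of the 36 pathway genes tested, ordered within 5 lists, in the Co line (grey) and the Hi line (red). Filled points passed an FDR-adjusted P-value of 0.05. Homer3 (5.35 and 5.58) and Slc1a6 (4.45 and 4.40) lie farthest to the right, and Slc17a8, Elfn1, Adcy5 and Grasp farthest to the left.

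Between lines, 3 of the 36 pathway genes passed in the Ce and 1 in the St, which is 8.33% and 2.78% beside 5.94% and 2.66% of all genes tested. In the Ce Elfn2 was lower in Co, with 422 ± 31.9 normalized counts in CeCo and 529 ± 57.6 in CeHi (log2 difference -0.32, limma, FDR-adjusted P-value = 0.020). The neuronal transporter gene Slc1a1 was lower in Co by 0.20 on the log2 scale (limma, FDR-adjusted P-value = 0.033). Slc17a8, a vesicular glutamate transporter, was higher in Co by 1.15 (limma, FDR-adjusted P-value = 0.0042), on 4 to 19 fragments per Ce sample. Its Ce values were under 1 CPM, so that it met the filter only through the St samples. The model pooled its spread with that of the far higher St values. With each region fitted alone, 0 of the 36 genes passed in the Ce by limma, although 10 had an unadjusted P-value under 0.05, and the adjusted values of these 3 genes were 0.069, 0.062 and 0.061. In the St Gpr179, which in the retina belongs to the mGluR6 complex, was lower in Co at 39.3 ± 6.35 normalized counts in StCo and 89.96 ± 24.8 in StHi (log2 difference -1.15, limma, FDR-adjusted P-value = 0.0088). The interaction passed for Slc17a8 (1.82, limma, FDR-adjusted P-value = 0.017), which was at 458 ± 34.0 in StCo and 748 ± 173 in StHi. Across the mean of both regions 0 of the 36 genes passed by limma, with 7 at an unadjusted P-value under 0.05, 0 by edgeR and 3 by DESeq2.

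All of these line calls but that of Slc17a8 in the Ce were lost when some single samples were left out, while the differences kept their direction. Elfn2 lay between -0.25 and -0.37 on the log2 scale and did not pass without CeCo replicate 0 (limma, FDR-adjusted P-value = 0.064), CeCo replicate 3 (0.067) or CeHi replicate 3 (0.054). Slc1a1 lay between -0.17 and -0.23 and did not pass without CeCo replicate 1 (limma, FDR-adjusted P-value = 0.063), CeCo replicate 2 (0.085), CeCo replicate 3 (0.094), CeHi replicate 0 (0.065) or CeHi replicate 3 (0.086). Gpr179 missed the threshold without StHi replicate 0 (log2 difference -0.94, limma, FDR-adjusted P-value = 0.051). The interaction of Slc17a8 missed it without StHi replicate 1 (1.68, limma, FDR-adjusted P-value = 0.064) or StHi replicate 2 (1.77, 0.059), and with the replicate number within line as a block (1.73, 0.11). Slc17a8 in the Ce passed without any 1 sample (limma, highest FDR-adjusted P-value 0.019), but not with each region fitted alone (0.061). Each fit without 1 sample still pooled its spread over both regions.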

How the data were processed

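RNA-seq libraries of 15 Ce and St samples were analysed, grouped by their labels. The authors aligned paired-end reads to GRCm38 with TopHat2 and normalized counts for library size with Cuffnorm 2.2.1, per the labels and the methods. Cuffdiff is named in the labels without its role. The deposited signal of a gene is its fragment count, which the authors divided by a factor per sample. This was checked on the values: 99.4% to 99.7% of low values (under 50 steps) were whole multiples of a common step within a tolerance of 0.05 steps. Divided by the step they gave 32909387 to 47485535 fragments per sample.

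TMM factors (edgeR 4.0.16) scaled the samples, and log2 was taken after adding 1. Group means were fitted with limma 3.58.1 in R 4.3.3, in its trended and robust form, to the 15213 genes with a CPM (count per 1000000) of 1 in 3 or more samples, and P-values were adjusted by the Benjamini-Hochberg method over these genes. P-values measure the spread between these mouse samples only. The model was tested on simulated data for CeCo-CeHi, where it recovered most changed genes but made more false calls than the threshold allows. All genes had the same dispersion in the simulation, unlike in the samples. Tests of edgeR (quasi-likelihood) and DESeq2 1.42.0 on the recovered fragments, other pseudocounts, filters and scalings, sample weights, replicate blocks, each region alone and the omission of each sample were alternatives. Lengths came from the GENCODE annotation of GRCm38, with promoters from RefSeq found for 5 of 7 members. All members and pathway list genes could be named, with the 2 genes of highest correlation for each member tested. The members and lists were chosen with earlier results of these data known. The samples' locomotor measurements were not used here. Some genes of the lists are not reported here.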

Additional observations from a re-analysis of the deposited data

Results flagged for a closer look

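Grm5 in CeHi replicate 3 was 1067.4 normalized counts, far above the other CeHi samples, which lay between 415 and 478. The gap was past Dixon's 95% critical value, which by its construction chance passes in about 1 of 20 groups, and 18 combinations of a member and a group of 4 samples were examined. Without this sample the log2 difference of Grm5 was -0.18 in CeCo-CeHi (limma, FDR-adjusted P-value = 0.40) and -5.28 in CeHi-StHi (limma, FDR-adjusted P-value = 1.6e-15). In the same sample Slc17a6, which encodes a vesicular glutamate transporter of subcortical neurons, was at 2267 normalized counts, against 654 to 1190.3 in the other Ce samples. The cause was not tested.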

How the results depend on the processing

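The number of members that passed was 5 to 6 in CeCo-StCo, 6 in CeHi-StHi and 0 in every line comparison and the interaction, over 25 or 26 alternatives each. The call of Grm2 in CeCo-StCo was the one that changed, and its FDR-adjusted P-value (limma unless named) was 0.046 without a filter, 0.047 with a filter of 0.1, 0.046 with sample weights and 0.047 by DESeq2, and between 0.017 and 0.20 without 1 sample. Counts of pathway genes moved more. With each region alone the count was 0 in the Ce. In the St it was 3 with sample weights, 2 by edgeR and 2 by DESeq2. For the line effect it was 2 with sample weights and 3 by DESeq2, and for the interaction 2 by DESeq2. Without 1 sample these counts lay between 1 and 3 in CeCo-CeHi, 1 and 2 in StCo-StHi, 0 and 2 for the line effect and 0 and 2 for the interaction. The causes were not tested.

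Several line differences near 0, none of which passed, changed sign. In the St that of Grm5 was -0.046 with sample weights. Without 1 sample the St differences lay between -0.064 and 0.109 for Grm3, -0.166 and 0.073 for Grm4, -0.109 and 0.070 for Grm5, -0.018 and 0.082 for Grm7 and -0.0050 and 0.316 for Grm8. In the Ce that of Grm7 lay between -0.095 and 0.0017, and the line effect between -0.035 and 0.020 for Grm7 and -0.067 and 0.094 for Grm8.

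The label numbers were not taken as pairs, because it is not stated whether samples with the same number came from the same mouse. Residuals of Ce and St samples with the same number correlated in the Co line (r = 0.171 to 0.278 over 4 pairs). They did not in the Hi line (-0.0751 to 0.0513 over 3 pairs). Samples with different numbers were not compared, so that these values do not settle the pairing. The main model takes all samples as independent, which would not hold for regions of the same mouse. With the replicate number as a block, Grm5 in StCo-StHi was -0.10 and the line effect of Grm7 was 0.0041, with 5 members called in CeCo-StCo and 6 in CeHi-StHi as before. A replicate block within line gave 0 pathway genes for the interaction, where Slc17a8 was 1.73 (limma, FDR-adjusted P-value = 0.11) against 1.82 without the block.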

Other observations

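Transcripts of choroid plexus cells (Ttr, Folr1, Kl and Clic6) varied widely between the Ce samples of each line. Their sum was 942 to 115133 normalized counts in the 8 Ce samples and 1251 to 17849 in the 7 St samples (1251 to 1765 in StCo), with both lines spread over most of the Ce range. The markers differed from each other. Most of the StCo sum was Clic6, at 978 to 1461, whereas Ttr was at 44.5 to 504 there. In the Ce Ttr was at 594 to 109530 and Clic6 at 234 to 2105. Microglial markers (Cx3cr1, C1qa and P2ry12) summed to 1402 to 1943 in the Ce and 6588 to 8062 in the St, without overlap. Of the genes that work with mGluR6 in the retina, Nyx was at 61.4 ± 7.11 normalized counts in CeCo (SD, n = 4) and 24.1 ± 5.11 in StCo (n = 4), while Grm6 itself had at most 2 fragments in any sample.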
